A study of Rattus norvegicus with 18 samples.

Results

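The 9 genes described here encode the enzymes that make and break down polyamines and the proteins that regulate them, measured as mRNA in cultured rat nucleus pulposus cells exposed to G-quadruplex ligands. They were chosen by gene symbol from the deposited table: Amd1, Odc1, Srm and Sms for synthesis, Azin1, Oaz1 and Oaz2 for the regulation of ornithine decarboxylase, and Sat1 and Smox for catabolism. All 9 were found among the 33898 genes of the table, and all 9 passed the filter on low counts that left 14184 genes for testing. The list was put together with the comparisons below already known, so every fold change, adjusted p and count of calls given for these 9 genes is a description of these libraries and not independent evidence.

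Nucleus pulposus cells live in the soft centre of the disc between vertebrae. Those sequenced here were isolated from discs of Sprague Dawley rats aged 8 weeks, grown in DMEM with 10% fetal bovine serum and seeded 24 hours before treatment, and all 6 groups share this origin and culture. The PDS group received PDS for 24 hours and was set against controls whose titles name PDS. The Phen-DC3 group received Phen-DC3 for 24 hours and was set against controls whose titles name Phen. The Braco-19 group received Braco-19 for 24 hours and was set against the remaining controls, whose titles name no compound and which were paired with Braco-19 by elimination (unnamed controls below). The compounds bind G-quadruplexes, stacked folds of guanine-rich DNA or RNA. The labels give no dose, and what the controls received is not given in them. Each group has 3 libraries, called biological repeats by the submitters, and no label says whether these came from separate cultures or animals, so p-values measure the spread between libraries, which may be technical.

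Library totals ran from 15715121 to 18369443 counts, and the 9 genes together held 0.118% to 0.25% of them. The 12 markers of nucleus pulposus cells, all in the table, summed to 187 to 232 CPM, with 7 or 8 of them above 1 CPM in every library of a group. Pax1 (73.7 to 116 CPM), Foxf1 (33.7 to 48.0), Col2a1 (9.13 to 24.4) and Krt8 (6.24 to 16.9) were detected in all libraries. Among the others Krt19 and Tbxt had 0 counts in every library, Krt18 had at most 0.112 CPM (counts scaled to library size), and Acan, the core proteoglycan of the disc, had 0.0586 to 3.44 CPM, and Cd24 had 11.4 to 43.0 CPM. Collagens and other markers of fibroblasts and annulus cells (6 of 7 in the table) summed to 2653 to 7670 CPM. Markers of endothelial cells (at most 1.19 CPM summed), leukocytes (5.10), red cells (0.831), skeletal muscle (4.07) and Schwann cells (3.43) were low in every library, with Ptprc, the pan-leukocyte marker, at 0 counts in all. In bulk RNA, fewer cells of a type and less RNA per cell cannot be told apart. The libraries fall into a pair of sets with different composition: counts in gene models over 5000 bases took 23.3% to 25.4% of each library in the Braco-19 and unnamed control groups, against 7.42% to 10.7% in the other 4 groups.

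Polyamines are small positively charged molecules that bind nucleic acids and that growing cells need in quantity. Ornithine decarboxylase (Odc1) makes putrescine, S-adenosylmethionine decarboxylase (Amd1) supplies the aminopropyl donor, and spermidine synthase (Srm) and spermine synthase (Sms) use that donor to build spermidine and spermine. The antizymes Oaz1 and Oaz2 are produced by a ribosomal frameshift that polyamines promote, bind ornithine decarboxylase and send it to the proteasome, and antizyme inhibitor 1 (Azin1) resembles ornithine decarboxylase and takes antizyme away from it. Spermidine/spermine N1-acetyltransferase (Sat1) starts the catabolic route and spermine oxidase (Smox) oxidises spermine directly. Synthesis and catabolism are in large part controlled after transcription, by translation and protein turnover, which counts of mRNA do not show. In the table's own coordinates, whose build is not stated, Amd1 (ENSRNOG00000000585) lies on chromosome 20 at 45384000 to 45399694, Odc1 (ENSRNOG00000005424) on chromosome 6 at 42852683 to 42859927, Sms (ENSRNOG00000007688) on chromosome X at 40363646 to 40415109 and Azin1 (ENSRNOG00000005333) on chromosome 7 at 77345646 to 77372398. Oaz1 (ENSRNOG00000019459) lies on chromosome 7 at 11752412 to 11754508, Oaz2 (ENSRNOG00000015953) on chromosome 8 at 71216178 to 71228713, Sat1 (ENSRNOG00000003809) on chromosome X at 43625169 to 43629765 and Smox (ENSRNOG00000021255) on chromosome 3 at 124068865 to 124102240. All are annotated as protein coding.

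The 250 bases upstream of the annotated start are shown for the 4 members whose level differed under PDS at the threshold used below, a pair called lower (Odc1 and Oaz2) and a pair called higher (Amd1 and Sat1). The sequences are from RefSeq (GRCr8), read 5′ to 3′ on the gene's own strand, and capitals mark matches to the motifs searched.
Odc1, chr6:46058415-46058664, plus strand: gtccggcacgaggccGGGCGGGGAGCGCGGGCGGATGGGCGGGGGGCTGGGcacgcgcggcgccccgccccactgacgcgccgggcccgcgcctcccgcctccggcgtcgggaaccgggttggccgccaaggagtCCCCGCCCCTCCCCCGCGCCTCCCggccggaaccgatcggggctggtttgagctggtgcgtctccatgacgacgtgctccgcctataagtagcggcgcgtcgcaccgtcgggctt
Oaz2, chr8:75094567-75094816, plus strand: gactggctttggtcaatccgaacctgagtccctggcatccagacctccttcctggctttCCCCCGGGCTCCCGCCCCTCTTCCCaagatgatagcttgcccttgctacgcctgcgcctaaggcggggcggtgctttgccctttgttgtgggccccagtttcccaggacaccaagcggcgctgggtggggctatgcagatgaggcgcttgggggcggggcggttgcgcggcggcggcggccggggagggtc
Amd1, chr20:45265983-45266232, minus strand: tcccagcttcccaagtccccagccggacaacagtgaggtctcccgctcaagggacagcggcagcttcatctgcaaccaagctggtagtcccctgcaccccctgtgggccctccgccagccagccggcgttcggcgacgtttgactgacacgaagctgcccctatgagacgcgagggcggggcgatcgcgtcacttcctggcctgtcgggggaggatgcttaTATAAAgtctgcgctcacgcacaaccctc
Sat1, chrX:44007839-44008088, plus strand: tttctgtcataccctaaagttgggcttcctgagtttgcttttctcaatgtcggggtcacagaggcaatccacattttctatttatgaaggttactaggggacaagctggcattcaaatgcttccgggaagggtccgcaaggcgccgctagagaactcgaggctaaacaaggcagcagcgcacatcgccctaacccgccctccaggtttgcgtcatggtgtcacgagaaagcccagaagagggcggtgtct
In Odc1 and Oaz2 the capitals are runs that match the usual letter rule for a potential G-quadruplex, at least 4 runs of at least 3 G separated by 1 to 7 bases of any kind, searched on both strands. Odc1 holds a match on its own strand at bases 16 to 51 and a match on the opposite strand, read here as runs of C, at bases 136 to 159. Oaz2 holds a match on the opposite strand at bases 60 to 84. Amd1 and Sat1 hold no match in this window, and the capitals in Amd1 mark a TATAAA at bases 222 to 227. Promoters of 8 of the 9 members were matched in the RefSeq table by symbol, and Azin1 was not. That of Srm lies on chromosome 5, whereas the row measured as Srm lies on chromosome 3 in the deposited coordinates. Whether the Srm promoter belongs to the measured row is therefore uncertain. A match to the G-run rule was found in 3 of these 8 promoters (Odc1, Oaz2 and Srm) and in 14.9% of all 33469 promoters of the same length. CACGTG, the core of the E-box bound by Myc and Max, was found in Oaz1 and Srm and in 5.59% of all promoters, and in Srm it lies within a G-run match. TATAAA was found in Amd1 and Oaz1 and in 12.9% of all promoters. The GC content of the windows was 78.0% in Odc1, 67.6% in Oaz2, 64.0% in Amd1 and 52.8% in Sat1, with a median of 51.2% over all promoters. A letter match is a description of the sequence and does not show that a fold forms or a factor binds.

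Under PDS, Amd1 and Sat1 rose and Odc1 and Oaz2 fell, with fold changes of 0.724 to 1.41. Called here means an adjusted p under 0.05 in edgeR's quasi-likelihood F-test with Benjamini-Hochberg adjustment over the 14184 genes. Of the 9 members 4 were called, 2 higher and 2 lower, where 8.09% of all genes tested were called, 5.13% higher and 2.96% lower. The median log2 fold change was 0.03 over the members and 0.02 over all genes. The PDS and PDS control libraries did not overlap for 6 of the 9 members, and the same held for 33.3% of all genes.

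Among the synthesis genes, Amd1 had 111, 106 and 121 CPM in PDS cells, against 86.9, 71.9 and 81.9 CPM in PDS controls. All 3 PDS libraries lay above all 3 controls. The mean was 113 ± 7.72 CPM in PDS cells and 80.2 ± 7.66 CPM in PDS controls (SD, n = 3 each), a log2 fold change of 0.49 ± 0.09 (standard error, 1.41-fold, edgeR adjusted p = 0.00086). Odc1, the highest of the synthesis transcripts per kilobase, had 423, 419 and 411 CPM in PDS cells, against 464, 490 and 496 CPM in PDS controls. Its libraries did not overlap either, and it fell by 0.21 ± 0.06 on the log2 scale (edgeR adjusted p = 0.0217). That call was lost without any 1 of PDS libraries 1, 2 and 3 or PDS control libraries 2 and 3, where the log2 fold change of Odc1 was -0.22 to -0.19 and edgeR's adjusted p 0.0559 to 0.102. Sms, which makes spermine, had 15.7, 17.3 and 15.3 CPM in PDS cells, against 15.7, 12.2 and 19.5 CPM in PDS controls. All 3 PDS values of Sms lay within the range of the controls, and its log2 fold change was 0.03 ± 0.16 (edgeR adjusted p = 0.939).

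Among the regulators, Oaz2 had 98.2, 94.7 and 82.3 CPM in PDS cells, against 124, 131 and 125 CPM in PDS controls. Every PDS library lay below every control, and Oaz2 fell by 0.47 ± 0.13 on the log2 scale (0.724-fold, edgeR adjusted p = 0.0306). The Oaz2 call was lost without any 1 of PDS control libraries 1, 2 and 3 or PDS libraries 2 and 3, with log2 fold changes of -0.49 to -0.39 and edgeR's adjusted p of 0.0609 to 0.152. Oaz1, the main antizyme, had 877, 767 and 687 CPM in PDS cells, against 972, 1036 and 1052 CPM in PDS controls. Its libraries did not overlap, but the spread of Oaz1 in other groups was wide, and the log2 fold change of -0.39 ± 0.20 was not called (edgeR adjusted p = 0.26). In a fit of the 6 libraries of this comparison alone it was called (log2 fold change -0.41, edgeR adjusted p = 0.00332). Over all genes that fit called 2053, against 1148 in the main model. Azin1 had 62.7, 62.8 and 63.5 CPM in PDS cells, against 56.6, 55.8 and 63.5 CPM in PDS controls. The groups overlapped, with a log2 fold change of 0.10 ± 0.08 (edgeR adjusted p = 0.465).

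On the catabolic side, Sat1 had 418, 390.4 and 380.3 CPM in PDS cells, against 298, 297 and 332 CPM in PDS controls. All PDS libraries lay above the controls, and Sat1 rose by 0.36 ± 0.07 on the log2 scale (1.28-fold, edgeR adjusted p = 0.00446). Amd1 and Sat1 were called in all 15 alternative fits of this comparison, with log2 fold changes of 0.42 to 0.55 for Amd1 and 0.32 to 0.42 for Sat1. Smox had 13.2, 12.3 and 11.9 CPM in PDS cells, against 8.22, 8.84 and 9.16 CPM in PDS controls. The Smox libraries did not overlap, but its log2 fold change of 0.51 ± 0.17 was not called (1.43-fold, edgeR adjusted p = 0.0686). In the fit of these 6 libraries alone, which called more genes in all as given above, Smox was called (log2 fold change 0.50, edgeR adjusted p = 0.0138). Markers of dividing cells (Mki67, Top2a, Ccnb1 and Cdk1, 4 of 4 measured) summed to 525 to 547 CPM in PDS cells, against 372 to 405 CPM in PDS controls. Smooth muscle markers (Acta2, Tagln, Myh11 and Cnn1, 4 of 4 measured) summed to 2058 to 2246 CPM in PDS cells, against 1543 to 1700 CPM in PDS controls. Among these Tagln averaged 1827 CPM in PDS cells and 1303 CPM in PDS controls, without overlap. Acta2 (290 and 283 CPM), Cnn1 (43.2 and 43.7) and Myh11 (7.06 and 6.38) overlapped between the groups. Nucleus pulposus markers summed to 187 to 194 CPM in PDS cells, against 199 to 207 CPM in PDS controls, without overlap. Among these Col2a1 (means of 9.80 and 17.3 CPM), Cd24 (30.3 and 37.3) and Krt8 (11.9 and 14.6) were lower without overlap. Ca12 (2.75 and 0.736 CPM) was higher without overlap, and the others did not separate. Fibroblast and annulus marker sums overlapped. The part of these marker differences in the changes above was not tested.

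**Figure D1:**
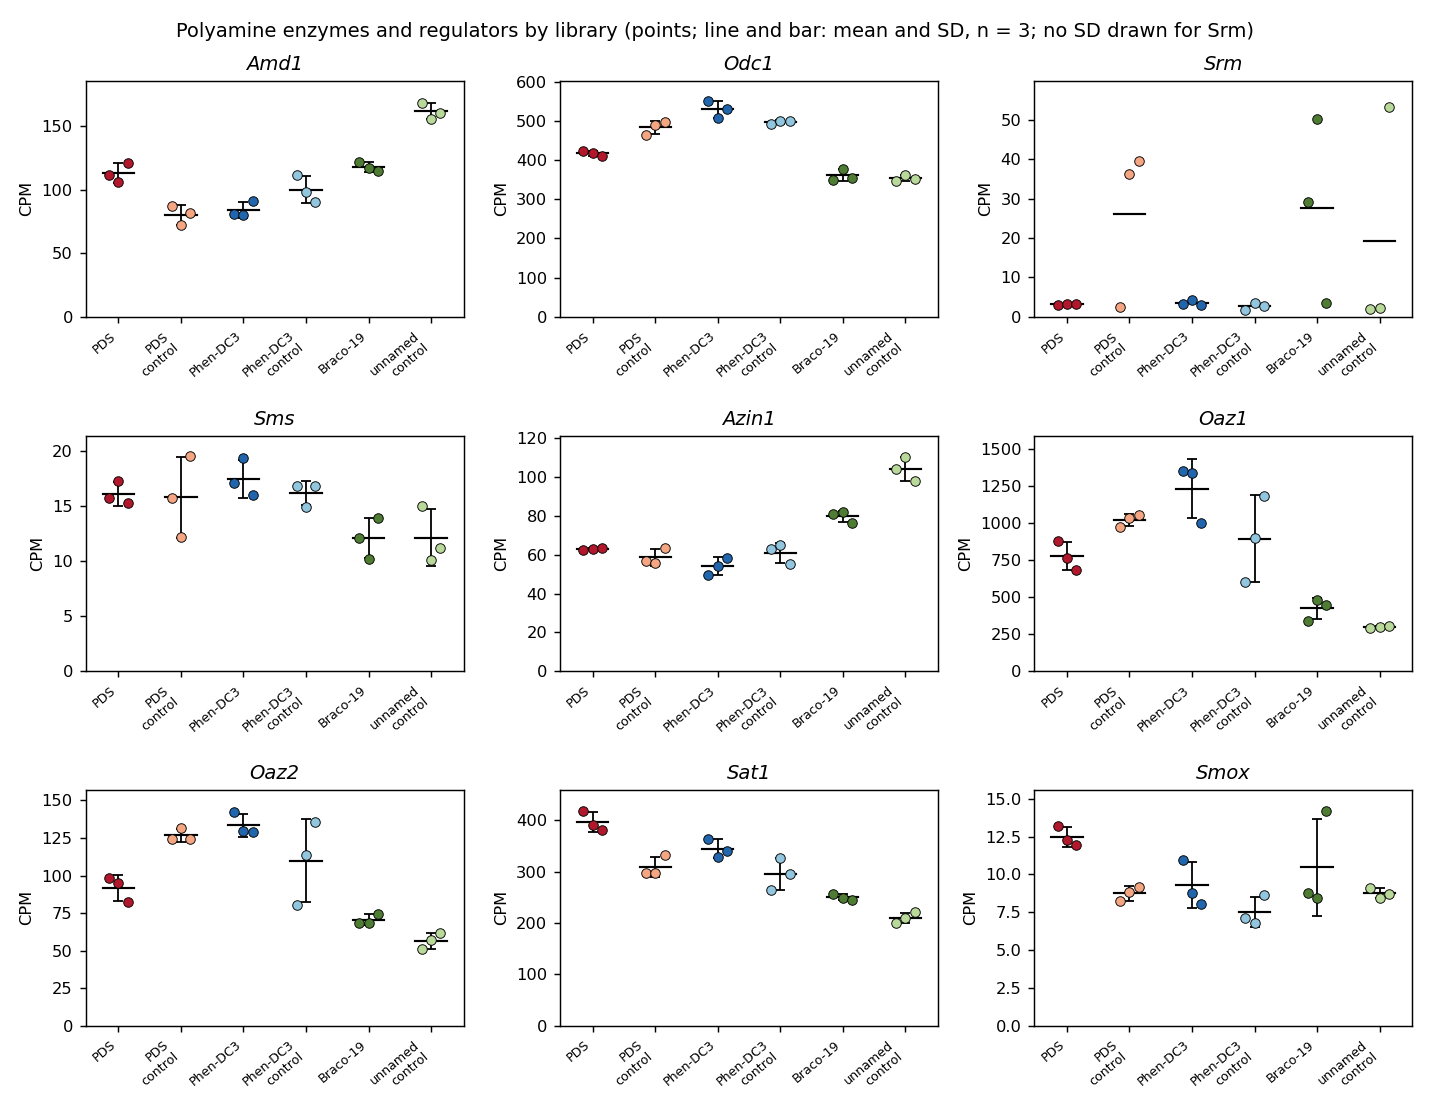
Scaled counts (CPM, vertical axis from 0) of each member in the 18 libraries, by group; points are libraries, lines the mean and bars the SD of 3 libraries (no SD for Srm). Amd1 and Sat1 lie higher and Odc1 and Oaz2 lower in PDS cells than in PDS controls, and Srm has 29.0 to 53.3 CPM in 5 libraries and 1.74 to 4.28 CPM in 13.

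Under Phen-DC3, no member was called, where 8.01% of all genes were, 2.19% higher and 5.82% lower. By edgeR's unadjusted p, 5 members were under 0.05 (Amd1, Azin1, Oaz1, Oaz2 and Sat1), and DESeq2 called 2, Sat1 higher and Amd1 lower. Over all genes DESeq2 called 2056 here, against 1136 by edgeR. The share of all genes with an unadjusted p under 0.05 was not counted. The median log2 fold change was 0.22 over the members and -0.01 over all genes. The libraries of Phen-DC3 cells and their controls did not overlap for 2 members, Odc1 and Sat1, and for 22.1% of all genes.

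Amd1 had 80.7, 80.1 and 90.9 CPM in Phen-DC3 cells, against 111, 98.1 and 90.2 CPM in Phen-DC3 controls. The groups overlapped through the third library of each, and the log2 fold change was -0.25 ± 0.09 (edgeR adjusted p = 0.069). Sat1 had 364, 329 and 340.4 CPM in Phen-DC3 cells, against 263, 326 and 296 CPM in Phen-DC3 controls. All 3 Phen-DC3 libraries lay above the controls, with a log2 fold change of 0.22 ± 0.07 (edgeR adjusted p = 0.0643). Odc1 had 552, 508 and 532 CPM in Phen-DC3 cells, against 492, 499.7 and 500.0 CPM in Phen-DC3 controls. These did not overlap either, with a log2 fold change of 0.09 ± 0.06 (edgeR adjusted p = 0.276). Azin1 (log2 fold change -0.17 ± 0.08), Sms (0.11 ± 0.16) and Smox (0.30 ± 0.17) overlapped between the groups.

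Both antizymes varied widely among the Phen-DC3 controls. Oaz1 had 1354, 1338 and 1002 CPM in Phen-DC3 cells, against 601, 897 and 1186 CPM in Phen-DC3 controls. Oaz2 had 142, 129 and 129 CPM in Phen-DC3 cells, against 80.4, 114 and 136 CPM in Phen-DC3 controls. The third control library reached into the range of the treated cells for both, and the log2 fold changes were 0.46 ± 0.20 for Oaz1 and 0.28 ± 0.13 for Oaz2 (edgeR adjusted p = 0.149 and 0.157). Without Phen-DC3 control library 3, Oaz1 (0.72, edgeR adjusted p = 0.0147), Oaz2 (0.46, 0.00839), Amd1 (-0.32, 0.0151) and Azin1 (-0.24, 0.0456) were called, and without Phen-DC3 library 3 Amd1 was (-0.31, 0.0256). Fold changes followed gene length in this comparison: the median log2 fold change was 0.21 for gene models under 1000 bases and -0.31 for those over 5000 bases, and the share of counts in gene models over 5000 bases was 7.42% to 8.43% in Phen-DC3 cells and 9.26% to 10.7% in their controls. The gene models of Oaz1 (681 bases) and Oaz2 (567 bases) are the shortest of the members and that of Azin1 (4344 bases) is the longest. After correction of each library for its trend with length, the log2 fold changes were 0.27 for Oaz1, 0.07 for Oaz2, 0.10 for Sat1, 0.21 for Odc1 (0.09 before, edgeR adjusted p = 0.0998 after), 0.33 for Smox, 0.02 for Sms, -0.17 for Amd1 and -0.00 for Azin1, none of them called. Smooth muscle markers summed to 1693 to 1989 CPM in Phen-DC3 cells, against 1368 to 1621 CPM in Phen-DC3 controls, which do not overlap. Among these Tagln (1463 and 1128 CPM) and Cnn1 (49.7 and 39.5) did not overlap. Acta2 (313 and 282 CPM) and Myh11 (7.21 and 8.51, lower in Phen-DC3 cells) did. Markers of dividing cells summed to 376 to 412 CPM in Phen-DC3 cells, against 370 to 400 CPM in Phen-DC3 controls, which overlap. Single markers among them went in both directions. Mki67 averaged 22.04 CPM in Phen-DC3 cells and 39.7 CPM in Phen-DC3 controls, and Top2a, which overlapped, 69.9 and 96.7 CPM. Cdk1 averaged 203 CPM in Phen-DC3 cells and 163 CPM in Phen-DC3 controls, and Ccnb1 94.1 and 90.1 CPM, both without overlap. Fibroblast and annulus markers summed to 2686 to 3030 CPM in Phen-DC3 cells, against 3083 to 3154 CPM in Phen-DC3 controls, without overlap. Among these Col1a1 (means of 1166 and 1413 CPM) and Pdgfrb (103 and 132) were lower without overlap. Col3a1, Lum and Dcn, lower on average, and Thy1, higher on average, overlapped. Nucleus pulposus marker sums overlapped. The part of these marker differences in the values above was not tested.

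Under Braco-19, Amd1 and Azin1 fell, the only members called in a comparison in which 0.275% of all genes were called, 0.169% higher and 0.106% lower. Amd1 had 122, 117 and 115 CPM in Braco-19 cells, against 168, 156 and 160.4 CPM in unnamed controls. All Braco-19 libraries lay below all controls, and Amd1 fell by 0.46 ± 0.08 on the log2 scale (0.729-fold, edgeR adjusted p = 0.0246). Azin1 had 80.8, 82.1 and 76.6 CPM in Braco-19 cells, against 104, 110.5 and 98.2 CPM in unnamed controls. These did not overlap, and Azin1 fell by 0.39 ± 0.08 (0.765-fold, edgeR adjusted p = 0.0372). Without any 1 of unnamed control libraries 1 and 3 or Braco-19 libraries 2 and 3, neither was called, with log2 fold changes of -0.46 to -0.43 for Amd1 and -0.43 to -0.36 for Azin1 and edgeR's adjusted p of 0.0925 to 0.225. Without unnamed control library 2, Amd1 was called (-0.48, edgeR adjusted p = 0.04999) and Azin1 was not (-0.34, 0.142).

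The other members were not called under Braco-19. Oaz1 had 343, 481 and 448 CPM in Braco-19 cells, against 292, 299 and 307 CPM in unnamed controls (log2 fold change 0.50 ± 0.20, edgeR adjusted p = 0.216). Oaz2 had 68.7, 68.3 and 74.6 CPM in Braco-19 cells, against 51.0, 57.0 and 61.7 CPM in unnamed controls (0.32 ± 0.13, 0.212). Sat1 had 256, 249 and 245 CPM in Braco-19 cells, against 200.2, 209 and 221 CPM in unnamed controls (0.25 ± 0.08, 0.134). For each of these 3 genes all Braco-19 libraries lay above the controls, so that with Amd1 and Azin1 the groups did not overlap for 5 of the 9 members, where 28.1% of all genes did not. In a fit of these 6 libraries alone, Oaz1 (edgeR adjusted p = 0.0312), Oaz2 (0.0325) and Sat1 (0.0324) were called, and DESeq2 called Sat1 too (adjusted p = 0.0487). Over all genes that fit called 781 and DESeq2 333, against 39 in the main model. Fold changes followed gene length here as well, with a median log2 fold change of 0.14 for gene models under 1000 bases and -0.09 for those over 5000 bases. After the length correction they were 0.35 for Oaz1, 0.16 for Oaz2 and 0.18 for Sat1, not called, and -0.44 for Amd1 and -0.34 for Azin1, both still called. Odc1 had 350.5, 379 and 354 CPM in Braco-19 cells, against 348, 362 and 351 CPM in unnamed controls, which overlap (0.03 ± 0.06, 0.792). Sms (-0.00 ± 0.16) and Smox (0.26 ± 0.17) overlapped too, and the higher mean of Smox rested on Braco-19 library 3, with 14.2 CPM against 8.80 and 8.46 CPM in the other Braco-19 libraries. The median log2 fold change was 0.25 over the members and 0.00 over all genes. Markers of dividing cells summed to 1247 to 1453 CPM in Braco-19 cells, against 1629 to 1681 CPM in unnamed controls. Mki67 (means of 478 and 611 CPM) and Top2a (489 and 651) were lower in Braco-19 cells without overlap. Ccnb1 (182 and 180 CPM) and Cdk1 (211 and 216) overlapped. The part of these marker differences in the changes of Amd1 and Azin1 was not tested.

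**Figure D2:**
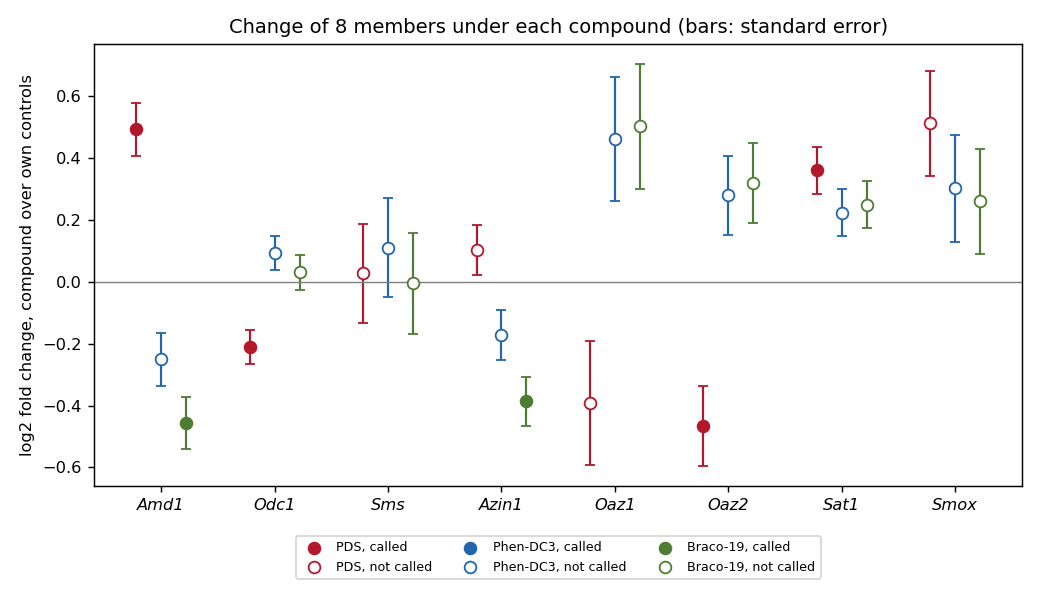
Log2 fold change of each compound over its own controls (vertical axis) for 8 members, with the standard error as bars; filled points passed the adjusted threshold, open points did not, and Srm is left out for its scale. Amd1 lies at 0.49 under PDS and below 0 under Phen-DC3 and Braco-19, while Sat1 and Smox lie above 0 under all 3 compounds.

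The effects of the compounds were tested against each other as interaction contrasts, with the doses unknown; contrasts that involve the same compound share its libraries and its controls. The effect of PDS minus that of Phen-DC3 was called for 4 members, 1 positive and 3 negative, where 20.2% of all genes were called, 12.4% positive and 7.76% negative. It was 0.74 ± 0.12 for Amd1 (edgeR adjusted p = 0.000864), -0.75 ± 0.18 for Oaz2 (0.0105), -0.30 ± 0.08 for Odc1 (0.0125) and -0.85 ± 0.28 for Oaz1 (0.0486). The effect of PDS minus that of Braco-19 was called for 4 members too, 2 in each direction, where 14% of all genes were called, 7.28% positive and 6.75% negative. It was 0.95 ± 0.12 for Amd1 (edgeR adjusted p = 6.72e-05), 0.49 ± 0.11 for Azin1 (0.0094), -0.79 ± 0.18 for Oaz2 (0.011) and -0.24 ± 0.08 for Odc1 (0.0454). Amd1, Oaz2 and Odc1 were thus called in both contrasts, Amd1 with a more positive and Oaz2 and Odc1 with a more negative effect of PDS. For Sat1 the effect of PDS differed from that of Phen-DC3 by 0.14 ± 0.11 and from that of Braco-19 by 0.11 ± 0.11, and for Smox by 0.21 ± 0.24 and 0.25 ± 0.24, none of them called. After the length correction the PDS minus Phen-DC3 difference of Oaz1 was -0.59 and was not called (edgeR adjusted p = 0.0718). Those of Amd1 (0.62), Odc1 (-0.48) and Oaz2 (-0.46) were called. The corrected PDS minus Braco-19 differences of Amd1 (0.89), Azin1 (0.37), Oaz2 (-0.54) and Odc1 (-0.33) were called too. With this correction the Sat1 difference between PDS and Phen-DC3 was 0.30 and was called (edgeR adjusted p = 0.0463), in that 1 of 21 alternative fits. Between Phen-DC3 and Braco-19 no member was called by edgeR or by DESeq2, none had an unadjusted p under 0.05, and 0.0494% of all genes were called, 0.0141% positive and 0.0353% negative. The differences there were 0.21 ± 0.12 for Amd1, 0.21 ± 0.11 for Azin1 and between -0.04 and 0.11 for Odc1, Sms, Oaz1, Oaz2, Sat1 and Smox, with standard errors of 0.08 to 0.28.

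The row annotated as Srm took 2 kinds of value that did not follow the groups. In 5 libraries it had 29.0 to 53.3 CPM (518 to 934 counts): PDS control libraries 2 and 3, Braco-19 libraries 1 and 2, and unnamed control library 3. In the other 13 libraries it had 1.74 to 4.28 CPM (28 to 73 counts). Within a group the values therefore differed by over 10-fold, as in the unnamed controls with 1.99, 2.20 and 53.3 CPM. The table places this row on chromosome 3 (14588870 to 14591974), whereas RefSeq GRCr8 places rat Srm on chromosome 5, and the table has a second row described as spermidine synthase-like on chromosome 5 (165405168 to 165408320, LOC100912604). That row had 17.5, 16.8 and 11.2 CPM in PDS cells, against 19.04, 19.3 and 17.7 CPM in PDS controls, and 3.61 to 20.4 CPM over all libraries. It had 8.36 to 19.3 CPM in the 5 libraries with a high Srm row and 3.61 to 20.4 CPM in the other 13. Whether reads that the 2 rows share were split between them was not tested, and the level of spermidine synthase mRNA is uncertain here. The log2 fold change of the Srm row was -3.03 ± 1.33 under PDS (edgeR adjusted p = 0.199), 0.41 ± 1.49 under Phen-DC3 (0.887) and 0.53 ± 1.15 under Braco-19 (0.834). With the counts of the 2 rows added, the PDS value was -1.29 (edgeR adjusted p = 0.311), an alternative chosen after the data were seen. Between control groups the row was not called in the main model, and some alternatives called it. DESeq2 did so for PDS controls against Phen-DC3 controls (3.32, adjusted p = 0.0311) and for Phen-DC3 controls against unnamed controls (-2.86, 0.0179), and the length correction did so for Phen-DC3 controls against unnamed controls (-3.37, edgeR adjusted p = 0.048). It was also called without 1 library: PDS controls against unnamed controls without unnamed control library 3 (3.64, edgeR adjusted p = 0.0185; 0.45 with it), and Phen-DC3 controls against unnamed controls without unnamed control library 1 or 2 (-3.38 each, 0.0422 and 0.0433; -2.85 with both). Without unnamed control library 3 the last of these values changed sign, to 0.34 (edgeR adjusted p = 0.832). Why the row differs between libraries of the same group was not tested.

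**Figure D3:**
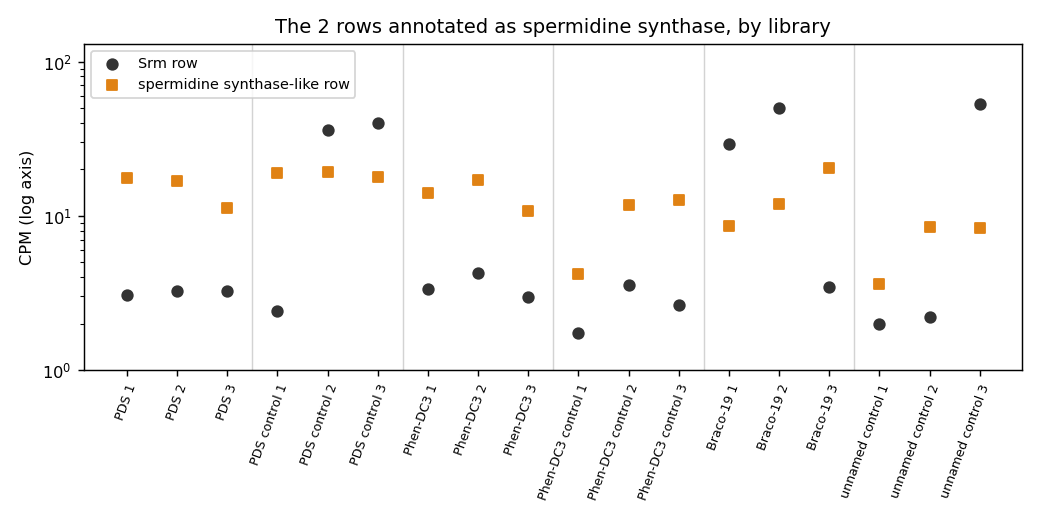
CPM (log axis) of the Srm row and of the spermidine synthase-like row in each of the 18 libraries. The Srm row is at 29.0 CPM or above in 5 libraries from 3 groups and at 4.28 CPM or below in the other 13.

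Levels per kilobase of gene model put the members other than Srm in the same order in every group. Oaz1 was the highest in all 6 groups, at 1141 CPM per kilobase in PDS cells, 1498 in PDS controls, 1808 in Phen-DC3 cells, 1314 in Phen-DC3 controls, 622 in Braco-19 cells and 439 in unnamed controls. Below it, by mean level per kilobase, came Sat1, Oaz2, Odc1, Amd1, Azin1, Sms and Smox. On this scale Sat1 had 316 and Smox 4.79 CPM per kilobase in PDS cells, so the acetyltransferase transcript stood far above that of the oxidase, and in PDS controls Sat1 had 246 and Smox 3.36. Neighbours in the order did not overlap within a group, with 3 exceptions among these 8 genes: Sat1 and Oaz2 in Phen-DC3 controls, Azin1 and Sms in Phen-DC3 cells, and Oaz2 and Odc1 in unnamed controls. Between group means Oaz1 spanned the widest range apart from Srm, with 1231 CPM in Phen-DC3 cells, against 299 CPM in unnamed controls (4.11-fold), and Odc1 and Sms the narrowest (1.5-fold and 1.45-fold).

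**Figure D4:**
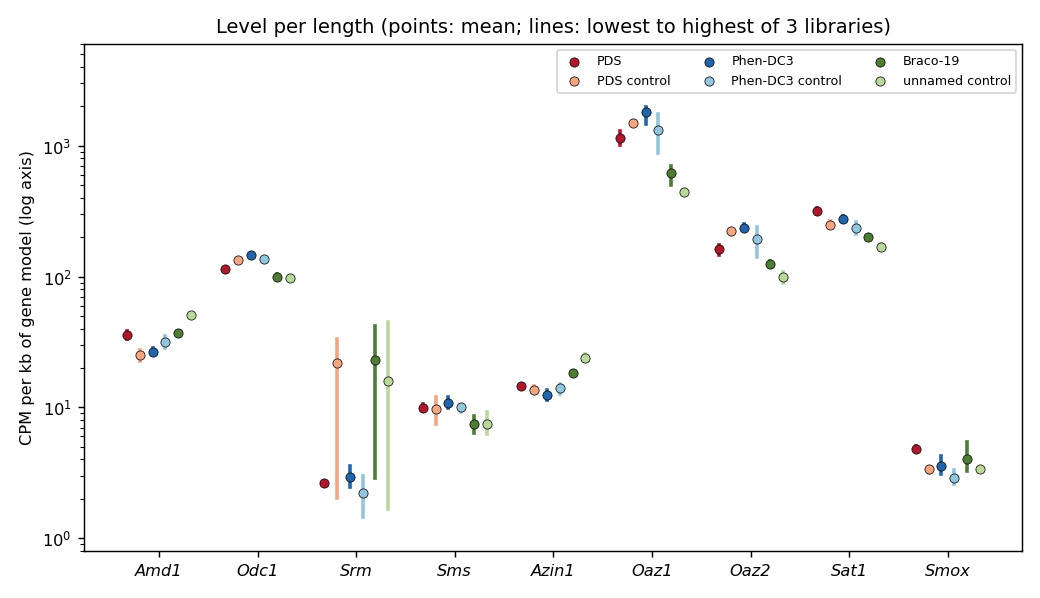
CPM per kilobase of gene model (log axis) for each member; points are means of 3 libraries and lines run from the lowest to the highest library of the group. Oaz1 is highest in every group, and the long lines of Srm are its split between libraries.

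Ratios of members within a library do not depend on the total used to scale it, but they do carry any trend with gene length, and are given as a description. Log2 of Sat1 over Odc1, a catabolic over a synthetic transcript, was 1.46 ± 0.05 in PDS cells and 0.89 ± 0.07 in PDS controls (SD, n = 3 each), a difference of 0.57 with no overlap. In Phen-DC3 cells it was 0.92 ± 0.02, against 0.78 ± 0.14 in their controls, which overlap, and the difference of 0.14 was 0.06 without Phen-DC3 control library 1 and 0.21 without Phen-DC3 control library 2. The ratio in Braco-19 cells was 1.01 ± 0.08, against 0.79 ± 0.07 in unnamed controls, with no overlap. Leaving out any 1 library kept the PDS difference between 0.53 and 0.61. Sat1 has a shorter gene model than Odc1. Their length-corrected log2 fold changes were 0.39 for Sat1 and -0.26 for Odc1 under PDS, 0.18 and 0.06 under Braco-19 and 0.10 and 0.21 under Phen-DC3. With the correction Sat1 thus lay below Odc1 under Phen-DC3, the reverse of the uncorrected order, and closer to Odc1 under Braco-19 than before. Log2 of Azin1 over Oaz1, the antizyme inhibitor over antizyme, was -6.29 ± 0.18 in PDS cells and -6.79 ± 0.08 in PDS controls. With Braco-19 it was -5.07 ± 0.27, against -4.19 ± 0.11 in unnamed controls. The groups did not overlap in either case, and the difference was 0.50 with PDS and -0.87 with Braco-19. With Phen-DC3 it was -7.17 ± 0.35, against -6.49 ± 0.59 in controls, which overlap; the difference of -0.67 ran from -0.97 without Phen-DC3 control library 3 to -0.39 without Phen-DC3 control library 1. Azin1 has the longest gene model of the members and Oaz1 one of the shortest. Their length-corrected log2 fold changes were 0.03 for Azin1 and -0.32 for Oaz1 under PDS, -0.34 and 0.35 under Braco-19 and -0.00 and 0.27 under Phen-DC3, closer together under each compound than before the correction. Log2 of Odc1 over Oaz1 differed in the same directions, by 0.19 with PDS, by -0.46 with Braco-19 and, with overlapping groups, by -0.41 with Phen-DC3. The PDS difference was 0.11 without PDS library 3 and 0.27 without PDS library 1, and the Phen-DC3 difference was -0.64 without Phen-DC3 control library 3 and -0.16 without Phen-DC3 control library 1. After the length correction Odc1 was at -0.26 under PDS, 0.06 under Braco-19 and 0.21 under Phen-DC3, beside the values of Oaz1 above.

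The 3 control groups carry the same treatment label. PDS controls against unnamed controls gave 7 called members, 5 higher and 2 lower, where 73.3% of all genes were called, 35.6% higher and 37.7% lower. Phen-DC3 controls against unnamed controls gave 5 higher and 2 lower, where 69.5% of all genes were called, 34.6% higher and 34.9% lower. These counts of 7 in 9 are near the share of all genes and give no result about the members in particular. Amd1 was 80.2 ± 7.66 CPM in PDS controls and 99.8 ± 10.6 CPM in Phen-DC3 controls, against 161 ± 6.39 CPM in unnamed controls. Oaz1 was 1020.1 ± 42.5 CPM in PDS controls and 895 ± 292 CPM in Phen-DC3 controls, against 299 ± 7.94 CPM in unnamed controls. In PDS controls, the log2 fold changes against the unnamed controls were -1.01 for Amd1, -0.83 for Azin1, 1.77 for Oaz1, 1.16 for Oaz2 and 0.45 for Odc1. In Phen-DC3 controls they were -0.69 for Amd1, -0.77 for Azin1, 1.58 for Oaz1, 0.96 for Oaz2 and 0.49 for Odc1. The libraries of these 5 genes did not overlap in either comparison, nor did those of Sat1, which made 6 of the 9 members, where 76.9% of all genes did not overlap for PDS controls and 71.2% for Phen-DC3 controls. Sat1 (0.56 in PDS controls, 0.49 in Phen-DC3 controls) and Sms (0.38 and 0.42) were called higher as well, but after correction for gene length Sat1 was at -0.01 in PDS controls and -0.00 in Phen-DC3 controls, and Sms at -0.04 and 0.05. Length-corrected values in PDS controls were -0.71 for Amd1, -0.13 for Azin1 (not called), 0.96 for Oaz1, 0.34 for Oaz2 and 0.92 for Odc1. In Phen-DC3 controls they were -0.46 for Amd1, -0.20 for Azin1, 0.89 for Oaz1, 0.27 for Oaz2 and 0.87 for Odc1, all 5 called. The Sms call in PDS controls was also lost without any 1 of PDS control libraries 1 and 3 and unnamed control libraries 2 and 3 (0.20 to 0.39, edgeR adjusted p = 0.0686 to 0.284). That in Phen-DC3 controls was lost without any 1 of Phen-DC3 control libraries 1 and 3 and unnamed control libraries 2 and 3 (0.30 to 0.39, edgeR adjusted p = 0.0625 to 0.139). Smox was not called in either comparison, with 8.74 ± 0.48 CPM in PDS controls and 7.52 ± 0.98 CPM in Phen-DC3 controls, against 8.75 ± 0.33 CPM in unnamed controls. Markers of dividing cells summed to 372 to 405 CPM in PDS controls and 370 to 400 CPM in Phen-DC3 controls, against 1629 to 1681 CPM in unnamed controls. Smooth muscle markers summed to 1543 to 1700 CPM in PDS controls and 1368 to 1621 CPM in Phen-DC3 controls, against 442 to 654 CPM in unnamed controls. Myh11 alone among them was lower in PDS controls (6.38 CPM) than in unnamed controls (9.07 CPM), and it overlapped for Phen-DC3 controls (8.51 CPM). Fibroblast and annulus markers summed to 2738 to 3133 CPM in PDS controls and 3083 to 3154 CPM in Phen-DC3 controls, against 5846 to 7059 CPM in unnamed controls. Among these Col1a1 averaged 1356 and 1413 CPM, against 4855 CPM in unnamed controls, and Col3a1 and Pdgfrb were lower in both groups too. Thy1 was higher in both (935 and 798, against 560 CPM). Dcn and Lum were higher in Phen-DC3 controls (326 and 281, against 229 and 186 CPM) and overlapped for PDS controls. Nucleus pulposus markers summed to 199 to 207 CPM in PDS controls and 207 to 213 CPM in Phen-DC3 controls, against 222 to 230 CPM in unnamed controls. Among these Pax1, Sox9 and Acan were lower in both groups than in unnamed controls, and Cd24, Krt8 and Ca12 were higher in both. The part of these marker differences in the members' values was not tested. The sets differ in label and composition at the same time, so the set and any batch cannot be told apart. Between PDS controls and Phen-DC3 controls Amd1 alone was called lower (-0.31 ± 0.09, edgeR adjusted p = 0.0368), where 6.09% of all genes were called, 1.59% higher and 4.5% lower. Azin1 (-0.06), Oaz1 (0.19) and Oaz2 (0.20) were not called there. The Amd1 call was lost without any 1 of PDS control libraries 2 and 3 and Phen-DC3 control libraries 1 and 2 (-0.33 to -0.23, edgeR adjusted p = 0.0745 to 0.194), and without Phen-DC3 control library 3 Oaz2 was called too (0.38, 0.0241).

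A further list held 37 genes of or around polyamine metabolism: precursor supply, methylthioadenosine salvage, catabolism, antizyme, hypusine, transport (arginine transport included) and regulators such as Myc. All 37 were in the table and 29 passed the filter. Under PDS, 2 of the 29 were called higher and 2 lower, where 8.09% of all genes were called, 5.13% higher and 2.96% lower, and the median log2 fold change was 0.00, against 0.02 over all genes. Arg1, the arginase that supplies ornithine, had 33.7, 33.96 and 35.2 CPM in PDS cells, against 22.1, 24.3 and 24.7 CPM in PDS controls, and rose by 0.53 ± 0.09 (edgeR adjusted p = 0.000441). Mat2a, which makes the S-adenosylmethionine that Amd1 decarboxylates, had 121, 117 and 132 CPM in PDS cells, against 104, 93.4 and 104 CPM in PDS controls, and rose by 0.30 ± 0.08 (0.0239). The other arginase, Arg2, had 1.88 ± 0.24 CPM in PDS cells and 3.56 ± 0.46 CPM in PDS controls and fell by 0.92 ± 0.21 (0.00936). Sat2, a relative of Sat1, had 10.3 ± 0.94 CPM in PDS cells and 15.4 ± 1.90 CPM in PDS controls and fell by 0.57 ± 0.13 (0.00697), opposite in sign to Sat1. For these 4 genes the PDS and PDS control libraries did not overlap. Arg1 was called in all 15 alternative fits, whereas without a single library Mat2a (PDS 1, PDS 3 or PDS control 2; 0.25 to 0.31, edgeR adjusted p = 0.0526 to 0.146), Sat2 (PDS 3 or PDS control 2; -0.51 and -0.47, 0.052 and 0.0527) and Arg2 (PDS 1; -0.82, 0.0503) were not. The 25 genes not called under PDS included Mtap, which recycles methylthioadenosine (0.17 ± 0.06), Paox, which oxidises acetylated polyamines (-0.11 ± 0.11), Eif5a, which carries the hypusine made from spermidine (-0.25 ± 0.10), its modifying enzymes Dhps (0.18 ± 0.12) and Dohh (-0.00 ± 0.10), the transporter genes Slc3a2 (-0.08 ± 0.06) and Atp13a3 (0.29 ± 0.36), and Myc, a transcription factor known to act on Odc1 (0.30 ± 0.10, edgeR adjusted p = 0.0614).

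Under Phen-DC3, 3 of the 29 were called higher and 1 lower, where 8.01% of all genes were called, 2.19% higher and 5.82% lower, and their median log2 fold change was 0.11, against -0.01 over all genes. Eif5a had 1808, 1665 and 1378 CPM in Phen-DC3 cells, against 1098, 1223 and 1466 CPM in Phen-DC3 controls (0.36 ± 0.10, edgeR adjusted p = 0.0434), and Dohh, the hydroxylase that completes hypusine, had 177, 163 and 142 CPM, against 110, 123 and 148 CPM in the controls (0.34 ± 0.10, 0.0443). The groups overlapped for both of these hypusine genes. Mri1, an enzyme of methylthioadenosine salvage, had 40.2 ± 4.22 CPM in Phen-DC3 cells and 32.2 ± 2.76 CPM in Phen-DC3 controls (0.32 ± 0.09, edgeR adjusted p = 0.0357). Slc7a1, a transporter of arginine, had 13.3 ± 1.04 CPM in Phen-DC3 cells and 18.2 ± 3.94 CPM in Phen-DC3 controls (-0.46 ± 0.12, 0.0319). None of the 4 was called after correction for gene length (0.22 for Eif5a, 0.24 for Dohh, 0.26 for Mri1 and -0.13 for Slc7a1), nor without any 1 of Phen-DC3 libraries 1 and 2 or Phen-DC3 control libraries 1 and 2, where edgeR's adjusted p was 0.0598 to 0.248 and Slc7a1 came to -0.27 without control library 1. Under Braco-19, edgeR and DESeq2 called none of the 29 (edgeR called 0.275% of all genes), 7 had an unadjusted edgeR p under 0.05, and the median was 0.05, against 0.00 over all genes. The share of all genes under that unadjusted threshold was not counted. Against the unnamed controls, 17 were called higher and 6 lower in PDS controls and 15 higher and 6 lower in Phen-DC3 controls, where 73.3% of all genes were called for PDS controls and 69.5% for Phen-DC3 controls.

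**Figure D5:**
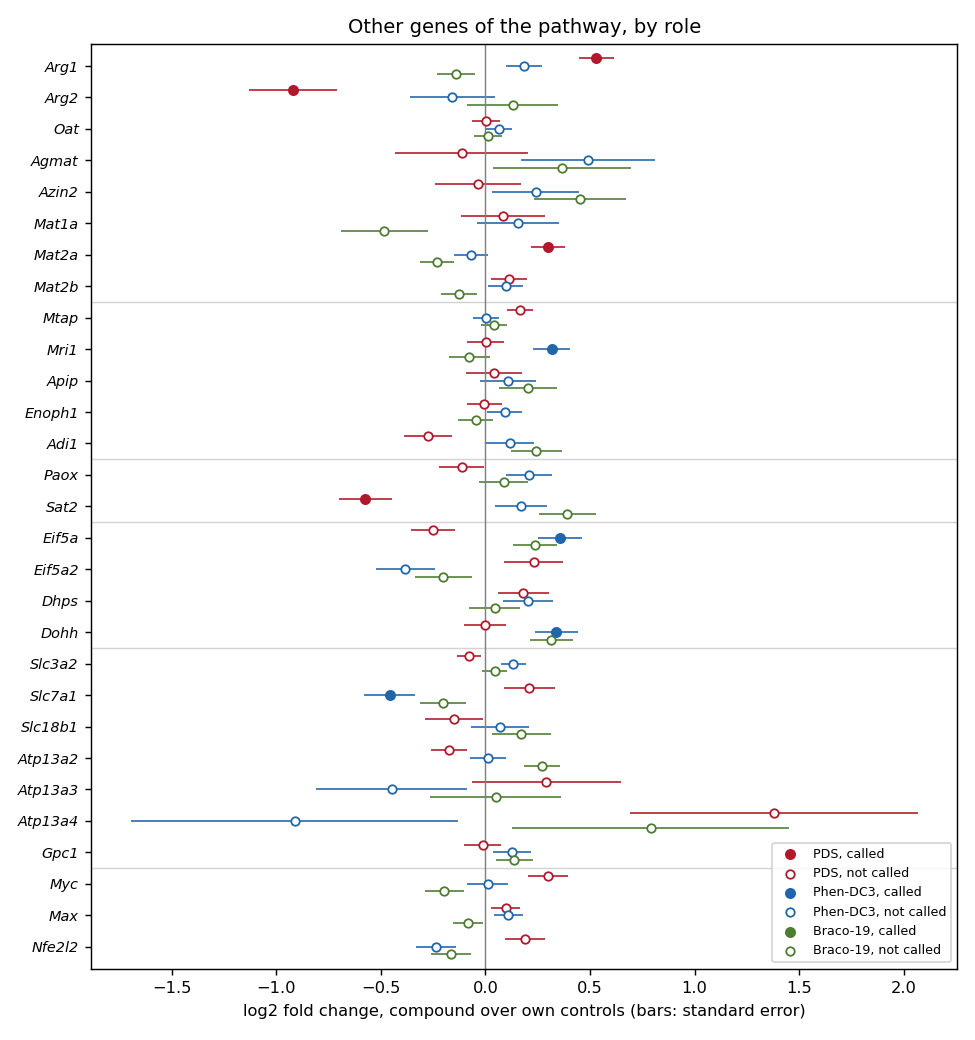
Log2 fold change of each compound over its own controls (horizontal axis) with the standard error for 29 genes of or around polyamine metabolism outside the 9 members. Genes are grouped by role, and filled points were called. Arg1 and Mat2a lie to the right and Arg2 and Sat2 to the left under PDS, at 0.53, 0.30, -0.92 and -0.57.

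For Odc1, Amd1 and Sat1, the genes with the most similar profile were sought by the root mean square difference in log2 CPM, centred per gene, over the 18 libraries. Nearest to Odc1 were Prmt9, Tpm1 and Rpl4, with differences of 0.05, 0.08 and 0.08 on the log2 scale. Nearest to Amd1 were Ptpn12, Shoc2 and Pmaip1 (0.09, 0.10 and 0.10). Nearest to Sat1 were Arf4, B4galt3 and Htra1 (0.10, 0.10 and 0.10). These distances compare with standard deviations over the libraries of 0.24 for Odc1, 0.36 for Amd1 and 0.32 for Sat1, and the profiles share the split between the library sets described above.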

How the data were processed

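RNA of cultured cells was sequenced in 18 Illumina libraries, and the authors deposited 1 table of raw, unnormalised read counts by gene, with gene positions and model lengths. The submitters' processing notes name CASAVA, HISAT2 and featureCounts 1.5.0-p3; genome build, annotation release and strand setting are not stated there, nor in the labels, so reads of overlapping genes on opposite strands could not be told apart. Coordinates of gene rows are the table's own, and promoter sequences and coordinates are RefSeq's (GRCr8).

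The members, the pathway list and the marker lists were chosen with earlier results of these data known. Named genes are the 9 members, pathway genes called in a comparison with a compound or listed as usual partners of a member, and the 3 genes nearest to Odc1, Amd1 and Sat1. The model was fitted with edgeR 4.0.16 (with limma 3.58.1, R 4.3.3). filterByExpr by group (minimum count 10) left 14184 of 33898 genes, TMM factors scaled the libraries, and 1 quasi-likelihood model with robust dispersions and a mean per group (12 residual degrees of freedom) was fitted to all 18 libraries. The F-tests are two-sided, p-values were adjusted by Benjamini-Hochberg over all genes tested within a comparison, and the threshold was 0.05. Standard errors were derived from the F statistics. CPM use TMM-scaled library sizes. Reads carry no molecular identifiers, so counting error is a lower limit.

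Alternatives were RLE and upper-quartile factors, no count filter, a filter of 1 CPM in 3 libraries, DESeq2 1.42.0, an offset for each library's trend of log2 CPM with gene length (lowess span 0.3), a replicate block, the block with the length correction, only the groups compared, and leaving out each library. The pipeline was tested on simulated data. Rows that begin with a member's symbol but are other genes (Srms) were left out.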

Additional observations from a re-analysis of the deposited data

Results flagged for a closer look

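The effects of PDS and of another compound differed, by the interaction test, in 8 cases, each a gene in a single contrast. Over all genes, 20.2% were called against Phen-DC3 and 14% against Braco-19. The cases cover Amd1, Odc1, Oaz1, Oaz2 and Azin1. Amd1, Odc1 and Oaz2 appear in both contrasts, which share the PDS and PDS control libraries. Against Phen-DC3, the difference in log2 fold change (PDS effect minus Phen-DC3 effect) was 0.74 for Amd1, -0.75 for Oaz2, -0.30 for Odc1 and -0.85 for Oaz1. Against Braco-19, it was 0.95 for Amd1, 0.49 for Azin1, -0.79 for Oaz2 and -0.24 for Odc1. The Amd1 differences were called in all 21 alternative fits of each contrast, and that of Oaz2 against Braco-19 in all 21 as well. Against Phen-DC3 the Oaz2 and Odc1 differences were called in 20 of 21, as was Azin1 against Braco-19. Oaz2 and Azin1 were lost with the replicate block and length correction together (edgeR adjusted p = 0.0582 and 0.054), Odc1 with the block alone (0.0587). The Oaz1 difference was called in 7 of 21: it was lost without any 1 of the 3 PDS control libraries, PDS libraries 2 and 3, Phen-DC3 libraries 1 and 2 and Phen-DC3 control libraries 1 and 2 (-0.89 to -0.63, edgeR adjusted p = 0.0622 to 0.118). It was also lost with no count filter, the length correction, the replicate block, both of these together and only the groups compared. The Odc1 difference against Braco-19 was called in 8 of 21 and was lost without any 1 of the libraries compared other than PDS control library 1 and Braco-19 library 1 (-0.26 to -0.21, edgeR adjusted p = 0.0596 to 0.128). No count filter and the replicate block, without and with the length correction, lost it too. Differences not called in the fit to all 18 libraries were called in alternatives. For Oaz1 against Braco-19 these were 6 of 21: upper-quartile factors (-0.92, edgeR adjusted p = 0.0438), the CPM filter (-0.90, 0.0474), DESeq2 (-0.90, 0.0156), the length correction (-0.67, 0.0453), only the groups compared (-0.92, 0.00127) and without Braco-19 library 1 (-1.03, 0.0309). Sat1 against Phen-DC3 was called with the length correction (0.30, 0.0463). Others were called without Phen-DC3 library 3 (0.33, edgeR adjusted p = 0.041) or Phen-DC3 control library 3 (0.34, 0.0281) for Azin1 against Phen-DC3, and without unnamed control library 3 for the Srm row against Braco-19 (-6.75, 0.0255). No group has more than 3 libraries, so none was searched for a library that stands apart.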

How the results depend on the processing

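No label says that a replicate number marks a shared culture or day. Same-numbered deviations from the group means correlated at -0.04, 0.06 and 0.00 for PDS and -0.12, -0.03 and -0.25 for Phen-DC3. For Braco-19 the values were 0.06, 0.07 and 0.01. Differently numbered libraries correlated at -0.07 to 0.19 for Phen-DC3, so these values cannot decide whether the numbers pair the samples. With a replicate block the members called were 2 under PDS (4 without it), 0 under Braco-19 (2 without it) and 2 for PDS effect minus Phen-DC3 effect (4 without it), and the pathway genes called under Phen-DC3 were 0 (4 without it). With the block and the length correction together, members called were 0 under Braco-19, 0 between PDS and Phen-DC3 controls (1 in the main model), 4 for PDS controls against unnamed controls (7), 2 for PDS effect minus Phen-DC3 effect and 2 for PDS effect minus Braco-19 effect (4), and pathway genes called under Phen-DC3 were 0. The length correction alone gave 0 members between PDS and Phen-DC3 controls, 4 for PDS controls against unnamed controls and 0 pathway genes under Phen-DC3. DESeq2 gave 2 members under Phen-DC3 (0 in the main model) and 2 between PDS and Phen-DC3 controls. Only the groups compared gave 5 members under Braco-19, 0 between PDS and Phen-DC3 controls, and 0 pathway genes under Phen-DC3 and 1 under Braco-19 (0 in the main model). Leaving out 1 library gave 2 to 3 members under PDS, 0 to 4 under Phen-DC3, 0 to 2 under Braco-19 and 0 to 2 between PDS and Phen-DC3 controls, and 2 to 4 pathway genes under PDS and 0 to 6 under Phen-DC3. Against unnamed controls and after the length correction, without and with the block, the log2 fold change of Sms in PDS controls turned to -0.0372 and -0.0381, that of Sat1 in PDS controls to -0.0131 and -0.0132, and that of Sat1 in Phen-DC3 controls to -0.00329 and -0.00315. The cause of these changes was not tested.

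Calls over all genes also moved. Under PDS there were 1148 (728 higher, 420 lower), 575 higher and 527 lower with upper-quartile factors, 587 with the block and 2053 with only the groups compared. Under Phen-DC3 there were 1136, 2056 by DESeq2, 47 with the length correction, and 1 each with the block, with both and with only the groups compared. Under Braco-19 there were 39, 333 by DESeq2, 2 with the block, 7 with both and 781 with only the groups compared. Between PDS and Phen-DC3 controls there were 864, 1606 by DESeq2, 468 with the length correction, 344 with both and 3 with only the groups compared. Upper-quartile factors moved the median log2 fold change of all genes by 0.11 in the comparisons with unnamed controls, less than any called member's value there. With 3 libraries a group, the members with the fewest counts apart from Srm, Sms (10.1 to 19.5 CPM) and Smox (6.81 to 14.2 CPM), had standard errors of 0.16 to 0.17 in comparisons of 2 groups, and a Smox value of 0.51 under PDS was not called.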
